A study of Mus musculus with 16 samples.

Results

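The G proteins of both classes of vomeronasal sensory neuron were followed through 7 genes: *Gnai2* and *Gnao1*, which encode the α subunits Gαi2 and Gαo, *Gnb1* and *Gnb2*, which encode β subunits, *Gng8* and *Gng13*, which encode γ subunits, and *Plcb2*, which encodes phospholipase C β2. They were chosen by symbol, with earlier results of these data known, and all 7 were present among the 24340 genes that have both counts and RPKM. The RNA came from the vomeronasal organ (VNO) of male and female mice, 12 weeks old, whose lines had all been founded from outbred Hsd:ICR stock and had reached generation 88. High Runner (HR) lines 3, 6, 7 and 8 were bred for high voluntary wheel running, and Control lines 1, 2, 4 and 5 were kept without selection. Each of the 16 libraries held the pooled RNA of 3 mice of 1 line and 1 sex, so that each group of linetype and sex had 4 libraries. The line is the unit of selection, and what sets 1 line apart from another includes drift as well as selection.

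Vomeronasal neurons fall into an apical class, in which V1R receptors (*Vmn1r* genes) couple to Gαi2, and a basal class, in which V2R receptors (*Vmn2r* genes) couple to Gαo. A receptor that binds its ligand makes the α subunit exchange GDP for GTP and part from the βγ dimer, and the βγ dimer is held to activate phospholipase C, whose product leads to the opening of the channel TRPC2. Gβ2 and Gγ8 have been located in vomeronasal neurons, and Gγ13 and phospholipase C β2 are best known from taste cells and chemosensory cells of the nasal epithelium.

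*Gnai2* (ENSMUSG00000032562.13) lies on chr9:107614125-107635367 of GRCm38 on the minus strand, and *Gnao1* (ENSMUSG00000031748.16) on chr8:93809966-93969388 on the plus strand. Identical bases made up 70.3% of the longer of their coding sequences. The last 60 coding bases of each, read from the GENCODE M21 annotation of the GRCm38 reference, are shown because they hold the end of the α subunit that meets the receptor. The capitals mark the codon of the cysteine that pertussis toxin modifies, which both subunits share.
*Gnai2*: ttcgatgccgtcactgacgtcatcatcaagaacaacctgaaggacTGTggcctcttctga
*Gnao1*: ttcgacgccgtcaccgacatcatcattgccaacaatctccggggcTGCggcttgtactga

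The γ subunits are encoded by the shortest of the 7 genes, *Gng8* (ENSMUSG00000063594.5, chr7:16891786-16895436, plus strand) and *Gng13* (ENSMUSG00000025739.13, chr17:25717171-25719406, plus strand), with 1522 and 773 exon bases. Their whole coding sequences, 213 and 204 bases with the stop codon, are shown from the same reference because their length bears on the measurements below. Identical bases made up 53.5% of the longer one. The capitals mark the last 4 codons before the stop, the CAAX box through which a γ subunit receives its lipid.
*Gng8*: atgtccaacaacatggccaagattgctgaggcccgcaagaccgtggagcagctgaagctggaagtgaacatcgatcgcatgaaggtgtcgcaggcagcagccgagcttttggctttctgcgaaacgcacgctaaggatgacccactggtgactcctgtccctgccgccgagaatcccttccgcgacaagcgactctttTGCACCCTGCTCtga
*Gng13*: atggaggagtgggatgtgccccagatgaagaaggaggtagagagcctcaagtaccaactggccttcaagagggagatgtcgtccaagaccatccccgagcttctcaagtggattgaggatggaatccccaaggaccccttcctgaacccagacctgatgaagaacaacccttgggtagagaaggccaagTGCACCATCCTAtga

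*Gnb1* (ENSMUSG00000029064.15) lies on chr4:155491361-155559269 on the plus strand, *Gnb2* (ENSMUSG00000029713.15) on chr5:137528127-137533510 on the minus strand, and *Plcb2* (ENSMUSG00000040061.17) on chr2:118707517-118728438 on the minus strand. *Gng13* shares 399 of its exon bases with *Chtf18* on the other strand, and *Gnao1* shares 284 with the non-coding gene *4930488L21Rik* on the other strand. *Gnb2* shares exon bases with *Epo* and *Mir6418* on the same strand, at most 104 with either. Whether the counting used the strand of the reads is not given in the sources used here, so reads from these shared bases cannot be assigned to 1 gene.

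The counts on genes summed to between 15998552 and 70875276 per library. The marker gene of mature sensory neurons, *Omp*, had 1267 to 2596 CPM (counts scaled to a common library size), the apical marker *Meis2* 192 to 275 CPM and the basal marker *Tfap2e* 53.5 to 92.4 CPM, whereas *Trpc2* was listed at 0 counts in every library and gave no information. Of 10 listed markers of main olfactory neurons, *Cnga2* and *Stoml3* were the scarcest, with at most 5.20 and 7.56 CPM and with 412 and 632 counts over all libraries. *Gnal*, *Adcy3* and *Cnga4* had 4214, 39149 and 42674 counts. The others were abundant, *Ano2*, *Cngb1*, *Rtp2*, *Slc17a6* and *Rtp1* having 118981 to 511477 counts. The whole list, from which *Cnga4* and *Stoml3* were also listed for vomeronasal neurons, summed to 1527 to 2226 CPM, so its members did not run 1 way. The female libraries of Control line 5 and HR line 3 stood apart in their short transcripts. In these 2 libraries, the 146 genes with up to 1000 exon bases departed by -0.76 and -0.65 log2 units from the median of all libraries, against departures of -0.13 to 0.21 in the other 14 libraries. The 863 genes of 1000 to 2000 bases departed by -0.26 and -0.20 log2 units, and longer genes did not stand apart. *Gng13* and *Gng8* belong to the first and second of these length classes, so their fold changes are given with and without these libraries.

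**Figure D1:**
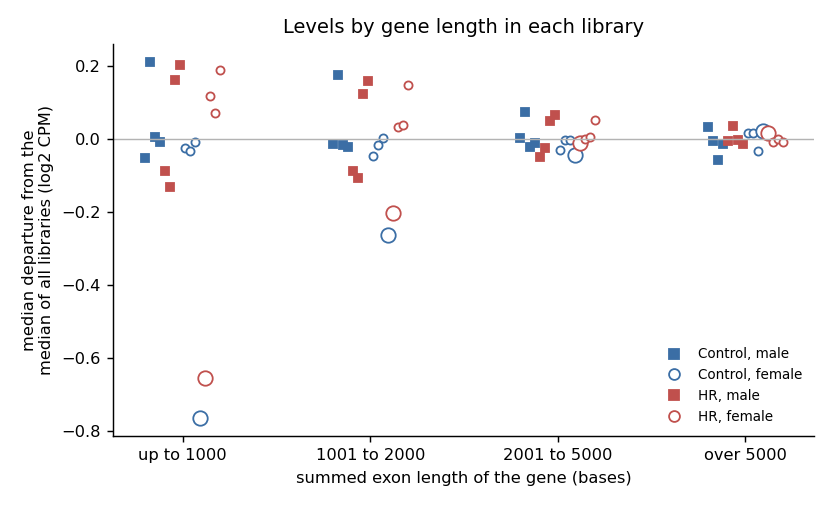
Median departure of log2 CPM from the median of all libraries (y axis) for genes in 4 classes of summed exon length (x axis), with 1 point per library; squares are male and circles female libraries, blue is Control and red HR. The large circles are the female libraries of Control line 5 and HR line 3, which lay at -0.76 and -0.65 log2 units in the shortest class and close to 0 in the classes over 2000 bases.

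To place the 7 genes among their relatives, levels were compared per gene length as deposited RPKM. *Gnai2* was the most abundant of 16 Gα genes, with 553 ± 110 RPKM (SD, n = 16 libraries) and 47.2% of the summed Gα level. *Gnas*, which encodes Gαs, followed with 354 ± 30.7 RPKM, and *Gnao1* was next with 143 ± 19.8 RPKM and 12.3% of the sum. *Gnai2* exceeded *Gnas* in 15 of 16 libraries, and *Gnas* exceeded *Gnao1* in 16 of 16, so the order of these genes held across nearly all libraries. The gene that followed had 33.8 ± 3.08 RPKM, and the other 12 had less on average.

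Among 5 Gβ genes, *Gnb1* made up 93.4% of the summed level with 1515 ± 217.5 RPKM. *Gnb2* had 83.7 ± 14.2 RPKM or 5.32% of the sum, and *Gnb5*, the partner of a subset of RGS proteins, had 17.1 ± 2.09 RPKM. The ratio of *Gnb1* to *Gnb2* was between 9.70 and 25.1 in the 16 libraries. The summed level of *Gnai2* and *Gnao1* was 0.458 ± 0.0292 of that of *Gnb1* (range 0.410 to 0.512), a ratio with little spread between libraries.

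Of 12 Gγ genes, *Gng2* was highest with 272 ± 32.6 RPKM, ahead of *Gng8* with 225 ± 57.7 RPKM and *Gng13* with 216 ± 101 RPKM. *Gng8* exceeded *Gng13* in 9 of 16 libraries as RPKM, and in 16 of 16, by at least 2.11-fold, as CPM per kilobase of annotated exons. In contrast to these subunits, *Plcb2* was scarce. It had 2.00 ± 0.319 RPKM, or 5.43% of the summed level of 4 phospholipase C β genes, below *Plcb3* with 21.2 ± 2.39 and *Plcb4* with 13.97 ± 5.27 RPKM.

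These levels depend on the length that each gene is given. The length implied by the deposited RPKM was 148 bases for *Gng13*, against 773 annotated exon bases, and 2971 bases for *Gnao1*, against 11053. When CPM were divided by the annotated exon length instead, *Gnai2* (63.5% of the Gα sum), *Gnb1* (95.8% of the Gβ sum) and *Gng8* kept their ranks of 1, 1 and 2. *Gng13* fell from rank 3 to rank 4 of 12 with 41.3 ± 20.0 CPM per kilobase, and *Gnao1* stayed at rank 3 with 8.24% of the Gα sum. The share of *Plcb2* in its class rose from 5.43% to 11.9%, and that of *Gnb2* fell from 5.32% to 3.03%. A length common to all libraries cancels when libraries are compared with each other.

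**Figure D2:**
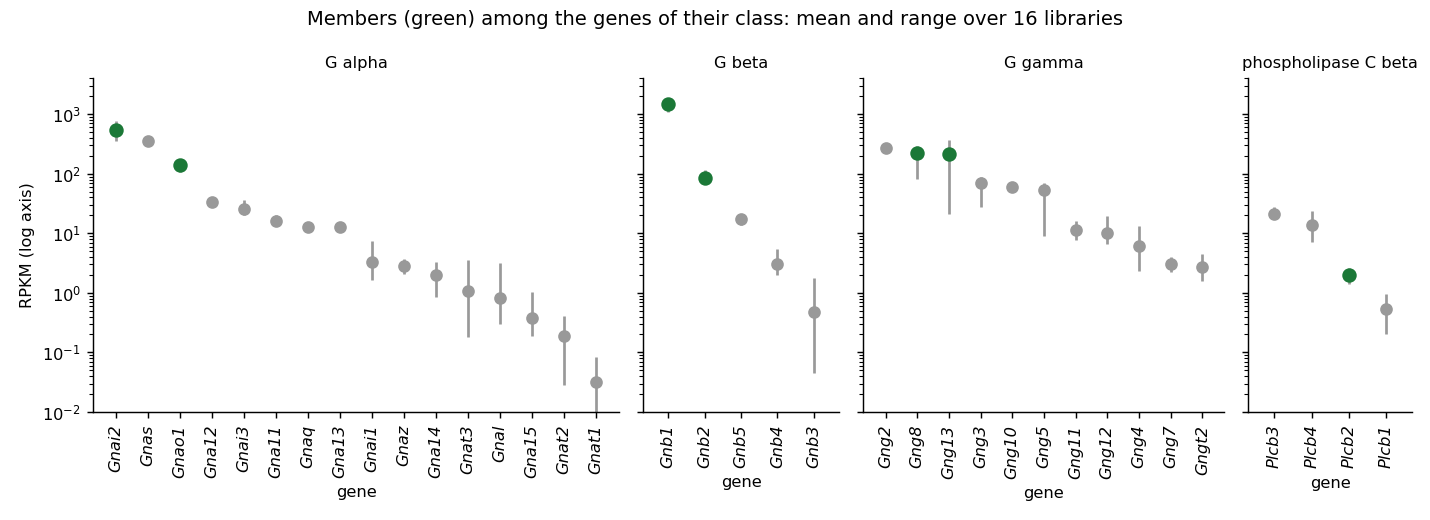
Mean RPKM (points, log axis) and the range over 16 libraries (lines) of the genes of each class, ordered by level, with the 7 genes of interest in green; *Gngt1*, listed at 0 in every library, is left out, and the line of *Gnat1* reaches 0. *Gnai2* and *Gnb1* head their classes at 553 and 1515 RPKM, and *Plcb2* is at rank 3 of 4 with 2.00 RPKM.

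For levels of 1 gene across libraries, CPM scaled by the trimmed mean of M-values (TMM) were used. *Gnai2* had 1538, 1481, 1044 and 1065 CPM in the male libraries of Control lines 1, 2, 4 and 5, and 985, 1027, 1406 and 1329 CPM in those of HR lines 3, 6, 7 and 8. The female libraries had 1079, 1146, 976 and 716 CPM in the Control lines and 848, 913, 977 and 1278 CPM in the HR lines, in the same order of lines. HR and Control values overlapped in both sexes, and in every line the female library was below the male library.

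*Gnao1* varied less, by 1.68-fold between the extreme libraries against 2.15-fold for *Gnai2*. It had 441, 424, 380 and 372 CPM in Control males and 379, 464, 408 and 456 CPM in HR males. In females it had 429, 457, 442 and 305 CPM in Control lines and 320, 458, 408 and 511 CPM in HR lines. The lowest values came from the female libraries of lines 5 and 3, and the sexes overlapped throughout.

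*Gnb1* ranged from 3152 CPM in the female library of Control line 5 to 5630 CPM in the male library of Control line 2, with a median of 4216 CPM. *Gnb2* ranged from 84.4 to 142 CPM with a median of 104 CPM, and here the female libraries of lines 5 and 3 were the highest, with 141 and 142 CPM, against at most 119 CPM elsewhere. The β subunits therefore stood at opposite ends in the same libraries.

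*Gng8* had 219, 223, 180 and 174 CPM in Control males and 156, 179, 250 and 220 CPM in HR males. In females it had 193, 190, 195 and 68.8 CPM in Control lines and 93.0, 195, 219 and 212 CPM in HR lines. The low values were again those of lines 5 and 3, and without them the range was 156 to 250 CPM. *Gng13* had 25.02 to 53.7 CPM in the Control libraries other than the female library of line 5, and 20.5 to 53.7 CPM in the HR libraries other than the female library of line 3, in which it had 2.30 and 1.51 CPM from 36 and 41 counts. In these 2 libraries its RPKM lay 0.907 and 0.956 log2 units above what its counts gave relative to the other libraries, whereas such departures were at most 0.179 for the other 6 genes. *Plcb2* had 13.0 to 21.2 CPM, with a median of 17.6 CPM, from 249 to 1123 counts.

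**Figure D3:**
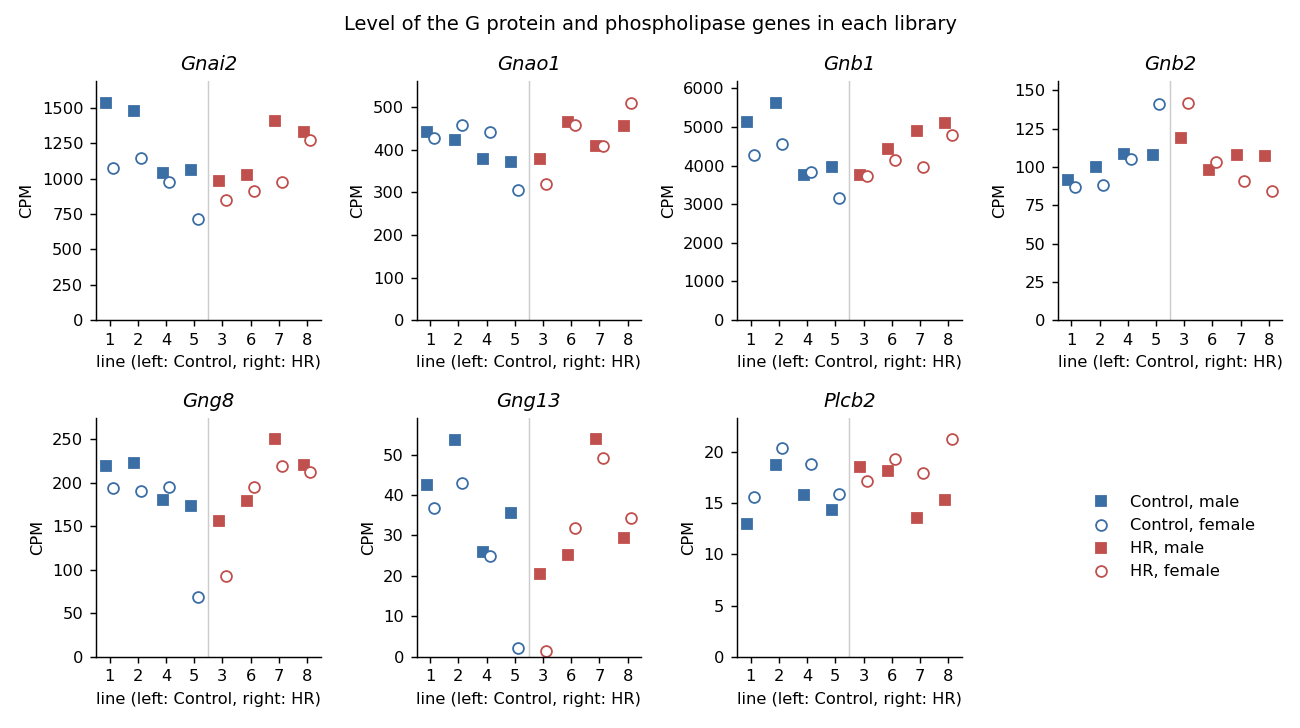
CPM (y axis, from 0) of the 7 genes in each library, by line (x axis, Control left and HR right of the grey line); squares are male and circles female libraries. HR and Control lines overlap for every gene, female *Gnai2* lies below male *Gnai2* in 8 of 8 lines, and *Gng8* and *Gng13* are lowest in the female libraries of lines 5 and 3.

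The first comparison asked whether selection for wheel running was accompanied by a change in these genes. No difference between HR and Control lines was detected for any of them. The quasi-likelihood test of edgeR, adjusted by Benjamini-Hochberg, called 0 of 7, with 0 of 7 at an unadjusted *p* under 0.05 against 3.3% of all genes. DESeq2 also called 0 of 7 (0.182% of all genes). The limma-voom fit called 0 of all 16507 genes and the test on line sums 0 of all 17104. Their 0 of 7 therefore says nothing particular to these genes. The background of edgeR was 4 of 16507 genes, or 0.0242%. At this share, and at that of DESeq2, 0 of 7 is near what all genes gave. The calls of edgeR and DESeq2 therefore say nothing particular to these genes either. *Gnai2* had 1095 ± 183 CPM in HR and 1131 ± 214 CPM in Control lines (SD of line means, n = 4 each), a log2 fold change of -0.04 with a standard error (SE) of 0.13. *Gnao1* had 425 ± 59.6 and 406 ± 47.2 CPM, a log2 fold change of 0.07 (SE 0.10). For *Gnb1*, *Gnb2*, *Gng8* and *Plcb2* the log2 fold changes were 0.02 (SE 0.11), 0.04 (SE 0.11), 0.08 (SE 0.21) and 0.09 (SE 0.09), and for *Gng13* -0.09 (SE 0.52). The adjusted *p* of edgeR was 0.99969 for all 7, and only for *Gng13* did 2 SE reach a change of 2-fold. These SE treat the 2 libraries of a line as independent, although the line is the unit of selection. With line as a random effect (limma-voom) they were larger, 0.684 for *Gng13* and 0.116 to 0.279 for the other genes. Without the female libraries of lines 5 and 3, edgeR gave -0.11 (SE 0.23) for *Gng13*, where 2 SE no longer reached 2-fold. For *Gng8* it gave 0.06 (SE 0.10). In bulk tissue, fewer cells of a type and less RNA per cell cannot be told apart.

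Tested in each sex alone, edgeR again called 0 of 7 genes in males (0% of 16361 genes) and 0 of 7 in females (0% of 16326 genes), with 0 of 7 at an unadjusted *p* under 0.05 in either, against 1.12% and 1.94% of all genes, and 0 of 7 by DESeq2, which called 0.0612% and 0.0307% of all genes. The interaction of sex and linetype gave 0 of 7 by edgeR and by DESeq2 and 0% of 16757 genes, with 0 of 7 at an unadjusted *p* under 0.05 against 0.46% of all genes. With 0% to 0.0612% of all genes called, the 0 of 7 in these tests says nothing particular to the 7 genes. Relative to *Omp* in the same library, which removes the library's scaling, HR and Control lines differed by -0.08 for *Gnai2*, 0.02 for *Gnao1*, -0.01 for *Gnb1*, 0.00 for *Gnb2*, 0.05 for *Gng8*, -0.24 for *Gng13* and 0.05 for *Plcb2* on the log2 scale. In the exact two-sided permutation test of 4 lines against 4, the smallest *p* of these 7 was 0.286, where 0.0286 is the smallest it can give.

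**Figure D4:**
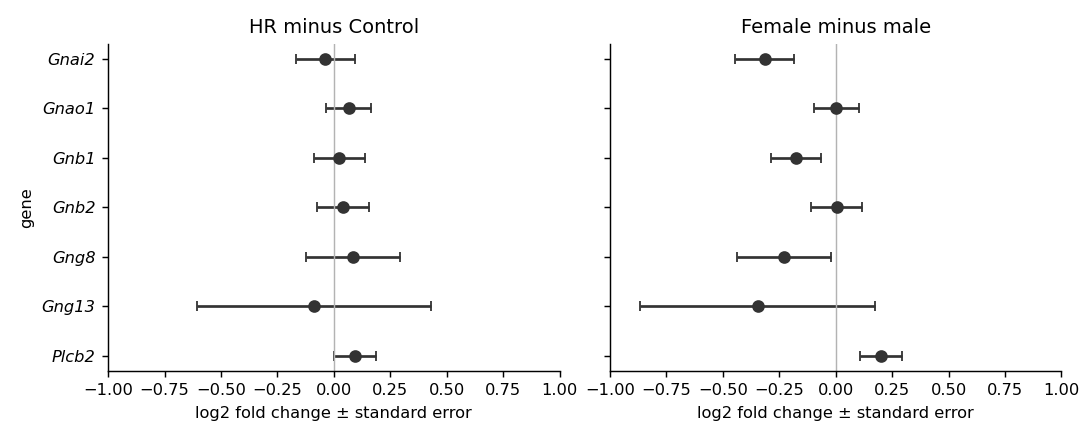
Log2 fold change from edgeR with its standard error (bars) for the 7 genes, as HR minus Control (left) and female minus male (right), over 16 libraries. On the left the points lie between -0.09 and 0.09, and on the right *Gnai2* is at -0.31 and *Plcb2* at 0.20.

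The second comparison was between the sexes. *Gnai2* had 1234 ± 227 CPM in males and 992 ± 176 CPM in females (n = 8 libraries each), a log2 fold change of -0.31 (SE 0.13), and the value of males was above that of females in 8 of 8 lines. *Plcb2* had 15.9 ± 2.30 CPM in males and 18.3 ± 2.04 CPM in females, a log2 fold change of 0.20 (SE 0.09) with the female library higher in 7 of 8 lines. *Gnao1* and *Gnb2* had log2 fold changes of 0.00 (SE 0.10) and 0.00 (SE 0.11), *Gnb1* -0.18 (SE 0.11), *Gng8* -0.23 (SE 0.21) and *Gng13* -0.35 (SE 0.52). None of the 7 passed the threshold in edgeR, where the adjusted *p* was 0.535 for *Gnai2* and 0.614 for *Plcb2*, against a background of 31 of 16507 genes (0.188%). At an unadjusted *p* under 0.05 there were 2 of 7, *Gnai2* (0.0283) and *Plcb2* (0.0490), against 8.08% of all genes, and DESeq2 called 0 of 7 and 1.29% of all genes.

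With line as a replicate block, edgeR called 87 genes (0.506%) in place of 31, and still 0 of these 7; *Gnai2* then had a log2 fold change of -0.32 (SE 0.07) with an adjusted *p* of 0.0817, and *Gng13* one of -0.68 (SE 0.47). Without the female libraries of lines 5 and 3, the log2 fold changes of *Gng8* and *Gng13* were 0.00 (SE 0.10) and 0.04 (SE 0.23), that of *Gnb2* was -0.17 (SE 0.07), that of *Gnao1* 0.12 (SE 0.07), and that of *Gnai2* -0.22 (SE 0.13). Each deposited table holds the libraries of 1 sex, which may also have been sequenced in 1 run, so sex and run cannot be told apart. *Omp* had 2143 ± 358 CPM in males and 1901 ± 366 CPM in females, higher in males in 6 of 8 lines, and relative to *Omp* the female minus male difference was -0.14 ± 0.13 for *Gnai2*, 0.17 ± 0.21 for *Gnao1* and 0.39 ± 0.31 for *Plcb2* (SD over 8 lines, log2). Scaling each library to equal *Omp* moved the median female minus male difference of all genes from -0.01 to 0.18, and with it *Gnb1* to 0.01 and *Gnai2* to -0.14.

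The ratio of *Gnai2* to *Gnao1* within a library was taken as a measure of apical against basal signaling RNA that no scaling of the library can change. In males it was 5.07, 5.03, 4.05 and 4.21 in Control lines 1, 2, 4 and 5, and 3.835, 3.23, 4.98 and 4.24 in HR lines 3, 6, 7 and 8, as a ratio of RPKM. In females it was 3.65, 3.58, 3.20 and 3.42 in the Control lines and 3.84, 2.85, 3.46 and 3.61 in the HR lines. The ratio exceeded 1 in 16 of 16 libraries, with 2.85 as its lowest and 5.07 as its highest value. The factor itself depends on gene length, since CPM per kilobase of annotated exons gave 5.83 to 10.22.

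No difference between HR and Control lines was detected in this ratio. Its log2 was 1.89 ± 0.199 in HR and 1.99 ± 0.125 in Control lines (SD over 4 lines in each). The difference was -0.10 with *p* = 0.486 in the exact two-sided permutation test. The difference was -0.18 in males alone (exact permutation *p* = 0.257) and -0.02 in females alone (exact permutation *p* = 0.914). HR line 6 had the lowest ratio in both sexes, and without it the difference of HR and Control lines was -0.0038.

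The sexes differed in the ratio, in a test that was not adjusted for the other tests of this ratio. Its log2 was 2.10 ± 0.227 in males and 1.78 ± 0.134 in females (n = 8 lines), a difference of -0.32 with *p* = 0.0156 when the signs of the 8 line differences were permuted exactly (two-sided), a test whose smallest possible *p* is 0.00781. The male library had the higher ratio in 7 of 8 lines, and in HR line 3 the sexes were equal within 0.0016 log2 units. The female minus male difference was -0.40 ± 0.0969 in Control and -0.23 ± 0.219 in HR lines, a difference of 0.17 that did not pass the exact permutation test (*p* = 0.2). Without HR line 7, which had the widest gap between the sexes, it was 0.265 and reached the smallest possible *p* of 0.0286 in that test. With any other line left out, the exact permutation *p* was 0.2 to 0.429, so this value rests on leaving out line 7. The families of receptors moved in the same direction, with a female minus male difference of -0.12 ± 0.0603 in the log2 ratio of summed *Vmn1r* to summed *Vmn2r* RPKM, negative in 8 of 8 lines, while *Meis2* over *Tfap2e* gave -0.05 ± 0.291 with 4 lines in each direction. Genes within 10% of the exon length of *Gnai2* and of *Gnao1* (1083 and 536 genes) had median female minus male differences of -0.02 and 0.01. The part of the sequencing run in the difference between the sexes cannot be told apart from that of sex.

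Whether the ratio is a property of a line was asked by comparing the male with the female library. Over 8 lines Pearson's *r* was 0.606 (exact permutation *p* = 0.113, adjusted 0.169 over 3 relations) and Spearman's ρ was 0.429 (exact permutation *p* = 0.299, adjusted 0.449). Without lines 1 and 6, which were farthest from the median, *r* was -0.11. Without HR line 6 alone it was 0.0222 and without Control line 1 alone 0.569, so the value rested on HR line 6. Without HR line 3, whose sexes were equal, it was 0.884 (exact permutation *p* = 0.00972, not adjusted). This was the highest of the values with 1 line left out, so it does not show that the ratio is a property of a line. Against the log2 ratio of *Vmn1r* to *Vmn2r*, *r* over line means was 0.825 (exact permutation *p* = 0.0265, adjusted 0.0796) and ρ was 0.452 (exact permutation *p* = 0.268, adjusted 0.449). Within males *r* was 0.713 and within females 0.666, but without lines 1 and 6 it was 0.260 (exact permutation *p* = 0.617), and without HR line 6 it was 0.355. This relation likewise rested on HR line 6, which was lowest in both ratios. Against *Meis2* over *Tfap2e*, *r* was 0.163 (exact permutation *p* = 0.751) and ρ 0.0952 (exact permutation *p* = 0.840), and without lines 1 and 6 *r* was -0.74 (exact permutation *p* = 0.138), with *r* of -0.33 in males and 0.558 in females.

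**Figure D5:**
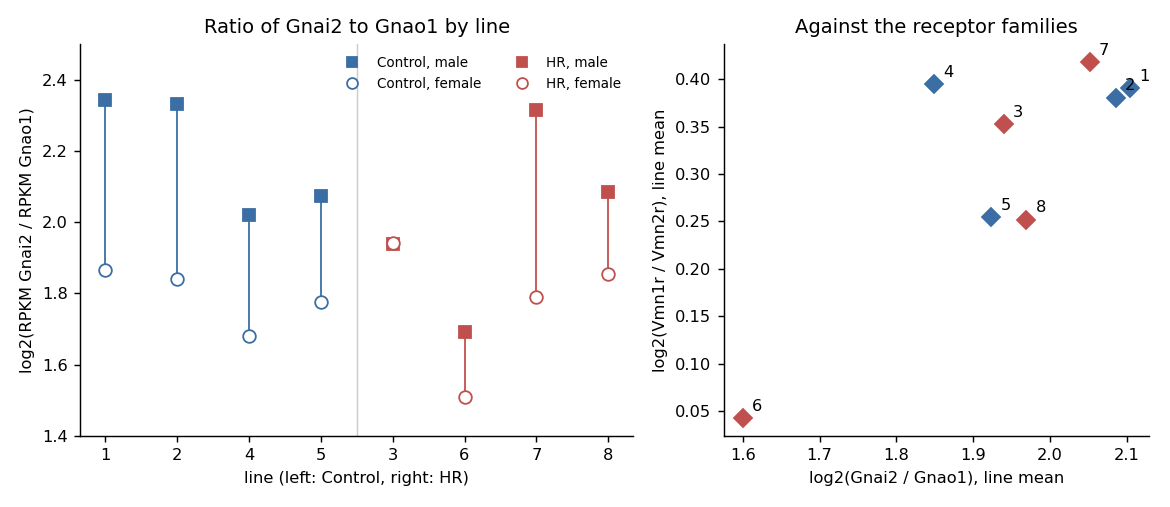
Left, log2 of the RPKM ratio of *Gnai2* to *Gnao1* in the male (squares) and female (circles) library of each line, joined by a line; right, its line mean against that of the ratio of summed *Vmn1r* to summed *Vmn2r* RPKM, with line numbers. The male value is higher in 7 of 8 lines, the pair of HR line 3 coincides, and HR line 6 is lowest in both ratios.

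The lines themselves were compared next, as differences among the 4 lines of a linetype beyond the spread left between the libraries of a line. edgeR's quasi-likelihood F test called 3 of 7 genes, *Gnai2* (adjusted *p* = 0.0226), *Gnb1* (0.0326) and *Gnao1* (0.0492), against a background of 27.7% of 17181 genes. At an unadjusted *p* under 0.05 there were 5 of 7, against 43.9% of all genes. *Gnb2* (0.0868), *Gng8* (0.0881), *Plcb2* (0.115) and *Gng13* (0.307) did not pass in that test. The call of *Gnao1* was lost with upper-quartile factors (0.0647) and without a filter on low counts (0.0544). From low to high, the line means of *Gnai2* were ordered 5, 3, 6, 4, 7, 1, 2 and 8, and those of *Gnb1* 5, 3, 4, 6, 7, 1, 8 and 2. Line 5 was lowest and line 3 next for *Gnai2*, *Gnao1*, *Gnb1* and *Gng8* alike, with HR and Control lines interleaved. For *Gnai2* the extreme lines differed by 1.49-fold, 3.96 times the SE of a difference of line means, while 6 of the 7 pairs of neighbors in the order lay within 1 SE of each other. *Gnb2* ran the other way, with lines 5 and 3 highest. The DESeq2 likelihood ratio test called 5 of 7, adding *Gnb2* (adjusted *p* = 0.0113) and *Gng8* (0.00179), against 42.5% of all genes. Without the female libraries of lines 5 and 3 the adjusted *p* from edgeR was 0.0568 for *Gnai2*, 0.0585 for *Gnb1* and 0.134 for *Gnao1*, and *Gng13* was then the only one called (0.00574), against 26.4% of all genes.

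The order of the lines was shared by *Omp*, whose line means were ordered 5, 3, 6, 4, 1, 7, 2 and 8. When each library was scaled to equal *Omp*, the adjusted *p* of *Gnai2*, *Gnb1* and *Gnao1* for differences among lines in edgeR rose to 0.564, 0.394 and 0.305, and *Gnb2* was the only one called (0.0134), against 44.7% of all genes. Markers of other cell types also differed between lines, but not all in the same lines. Summed over 11 genes, immune cell markers had 326 to 531 CPM in the libraries of lines 3 and 5 and 97.0 to 329 CPM in the rest, and 7 endothelial markers had 118 to 175 CPM against 42.7 to 129 CPM. The 8 stromal and cartilage markers ranged from 1036 to 5050 CPM, highest in the male library of line 3. In line 4 they had 3801 (male) and 3359 CPM (female), above the 1818 and 2655 CPM of line 5. Glial markers ranged from 81.1 to 170 CPM, highest in the male library of line 4. Supporting and respiratory epithelium markers ranged from 1447 to 2237 CPM, lowest in the female library of line 3. The part of these cell types in the differences among lines was not tested.

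The other genes of the pathway were read from fixed lists, chosen with earlier results known. For HR against Control lines edgeR called 0 of 13 other Gα, 0 of 4 other Gβ, 0 of 9 other Gγ, 0 of 3 other phospholipase C β and 0 of 30 regulator and chaperone genes tested, beside 0.0242% of all genes. At an unadjusted *p* under 0.05 there were 0, 0, 0, 0 and 1, beside 3.3% of all genes, the latter being *Rgs17* (log2 fold change -0.61, adjusted *p* = 0.99969). For the sexes the calls were likewise 0 in each list, beside 0.188% of all genes, with 0, 0, 0, 1 and 1 unadjusted, beside 8.08%. The latter were *Plcb3* (log2 fold change 0.18, adjusted *p* = 0.403, edgeR) and *Rgs11* (0.47, adjusted *p* = 0.107, edgeR), which had higher values in females in 8 of 8 lines and were singled out after their values were seen. The median log2 fold change of HR against Control was -0.09 in the Gα list, -0.11 in the Gβ list, 0.05 in the Gγ list, 0.00 in the phospholipase C β list and 0.01 in the regulator list, beside 0.00 over all genes.

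Among lines the counts were 5 of 13 Gα, 2 of 4 Gβ, 4 of 9 Gγ, 2 of 3 phospholipase C β and 8 of 31 regulator genes, beside the 27.7% of all genes. *Gng4*, a γ subunit of neurons, had 6.49 to 36.9 CPM and differed by 4.08-fold between line 8 (lowest) and line 1 (adjusted *p* = 8.88e-05, edgeR). *Gnal*, the Gα of the main olfactory epithelium, had 3.93 to 18.5 CPM and differed by 3.47-fold between line 2 and line 5 (adjusted *p* = 0.00855, edgeR), and it was highest in the male libraries of lines 5 and 3, as were *Cnga2* and *Stoml3*. *Gnai1*, *Gnai3* and *Gnb4* were lowest in line 8 and highest in line 5, with folds of 2.89, 1.46 and 1.86. *Gng12*, *Gng2* and *Gng3* differed by 2.18-fold, 1.34-fold and 2.12-fold between extreme lines, *Gnat2* by 4.35-fold at no more than 0.670 CPM, *Gnas* by 1.31-fold, *Gnb5* by 1.42-fold and *Plcb1* by 3.48-fold. *Plcb4* was lowest in line 8 and highest in line 3 (2.48-fold, adjusted *p* = 0.0219, edgeR). Of the regulators, the receptor kinase gene *Adrbk2* differed by 2.05-fold between line 8 and line 5 (adjusted *p* = 0.00242, edgeR), and *Rgs12*, *Rgs5*, *Rgs17* and *Rgs22*, which encode regulators of G protein signaling, had folds of 1.61, 2.78, 3.497 and 4.54 between their extreme lines. *Gnai1*, *Gnai3*, *Gnal*, *Gnb4*, *Gng12*, *Rgs5* and *Adrbk2* were highest in line 5, where *Gnai2* and *Gnao1* were lowest. *Gng3* and *Rgs12* were instead lowest in line 5, as *Gnai2* was, and *Gng2* and *Gnb5* were lowest in line 3. The genes of the pathway therefore did not run 1 way in line 5.

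Similarity of pattern was described by Pearson's *r* of log2 CPM over the 16 libraries, after the mean of each sex was removed, among 10680 genes of at least 10 CPM. All genes of a library share its depth and its scaling, so these *r* carry no test. *Gnai2* was most like *Hpse* (*r* = 0.960), *Rnf182*, *Tmcc2*, *Kif3c* and *Eef1a2* (0.946), and *Gnao1* most like *Vopp1* (0.946), *Agap1*, *Lyrm4*, *Hrk* and *Tmem150c* (0.934). *Gnb1* was most like *Eaf1*, *Hpse* and *Dnajc12* (0.967 to 0.961), and *Gnb2* most like *Tor2a*, *Zyx* and *Coro1c* (0.938 to 0.914). *Gng8* was closest to *Dync1i1*, *S100z* and *Cox6a1* (0.981 to 0.977) and *Gng13* to *Snhg3*, *Cystm1* and *Cox5b* (0.977 to 0.975), and both *Gng8* and *Gng13* had their lowest values in the 2 libraries low in short transcripts. *Plcb2* had no close match, with *Igsf10*, *Efnb3* and *Tmem191c* at 0.768 to 0.750.

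Among the 7 genes, *Gnai2* ran closest to *Gnb1* (*r* = 0.926, and 0.898 without the female libraries of lines 5 and 3), and both followed *Omp* (0.909 and 0.901). *Gnai2* and *Gnao1* had an *r* of 0.697, or 0.518 without these libraries. *Gnb2* ran against *Gnai2* (-0.73, and -0.65 without them). For *Gnao1* and *Gng13* the value of 0.795 dropped to 0.0052 without these libraries.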

How the data were processed

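The authors sequenced directional, rRNA-depleted libraries of vomeronasal RNA as 75-nucleotide reads and aligned them with STAR 2.6.1d to GRCm38 (mm10), accepting unique alignments without mismatch; Cufflinks is also named. The counting tool, annotation and strand setting are not given in the sources used here. The deposited counts are whole reads per gene, and the deposited RPKM are the authors' values scaled by gene length and library size, in 1 table per sex. The male counts came with 4 summary entries, holding 34.9% to 37.3% of the reads, which were left out, as were 4 entries of repeated names per table. Counts existed for 24407 genes and RPKM for 24350.

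The 7 genes and all gene lists were chosen with earlier results of these data known. Counts were tested with edgeR 4.0.16 (TMM, filterByExpr with a minimum count of 10, quasi-likelihood F test) in R 4.3.3 across all genes, with a Benjamini-Hochberg adjusted *p* under 0.05 as the threshold. Models held linetype and sex, their interaction, or the lines within a linetype. Log2 CPM had a prior count of 2. Ratios and levels relative to *Omp* were tested by exact permutation over lines (scipy 1.17.1). Alternatives were DESeq2 1.42.0, limma 3.58.1 (voom, line as a random effect), sums over the libraries of a line, other size factors, no filter, each line left out, and line as a replicate block. The line number, taken from the labels, pairs the male and female library of a line. These libraries deviated together from their group means (*r* of 0.321 to 0.708 across 16507 genes). Without a comparison with libraries of different lines, these *r* do not test the pairing. Genes besides the 7 were named where they were among the 3 highest of their class, where they passed the threshold in a list (at most 5 per list), or where they were most like 1 of the 7. On simulated data edgeR recovered 77% of 200 genes changed 2-fold between linetypes (16433 genes) and 74.5% between sexes. The simulated libraries were drawn independently, without differences among lines. These shares therefore do not give the recovery where the 2 libraries of a line deviate together, as they did here. Depth on genes was 15998552 to 70875276 counts, each library being a pool of 3 mice. Values after ± are SD over libraries, line means or differences within lines, as given with them, and include differences among lines. The SE of fold changes come from the fitted models.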

Additional observations from a re-analysis of the deposited data

Results flagged for a closer look

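In 32 groups of 4 libraries, the gap between the extreme library and its neighbor was set against the range of the group and compared with Dixon's 95% critical value for 4 samples, which chance alone passes in about 1 in 20 groups. *Gng8* in the female Control libraries passed it (0.975, lowest in line 5), as did *Gng8* in the female HR libraries (0.863, lowest in line 3), *Gng13* in the female HR libraries (0.875, lowest in line 3) and *Gnao1* in the female Control libraries (0.840, lowest in line 5). All 4 values came from the 2 libraries low in short transcripts. *Gng8* and *Gng13* are short, but *Gnao1* has 11053 exon bases. Genes over 5000 bases departed by 0.017 to 0.022 log2 units in these 2 libraries. The part of transcript length in the 4 values was not tested.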

How the results depend on the processing

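*Gng13* had 36 and 41 counts in the female libraries of lines 5 and 3, which limited its precision there; its CPM were low there as well. Settings without these libraries, with *Omp* factors or with exon lengths were chosen after seeing the data. The alternative of *Omp*, *Trpc2* and *Ano1* as a joint reference was not run because *Trpc2* was listed at 0; *Omp* and *Ano1* were used. No cause of the changes below was tested. Genes called between HR and Control numbered 30 by DESeq2, 1 with *Omp* factors, 0 from line sums and 0 by limma-voom, and by DESeq2 10 in males and 5 in females. Between sexes they numbered 180 by DESeq2, 19 without a filter, 7 with *Omp* factors and 87 with the replicate block, which changed no call of the 7 genes; without pairing, the sex difference in the ratio had an exact permutation *p* of 0.00513. Among lines they numbered 7307 by DESeq2 and 7684 with *Omp* factors.

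Small log2 differences changed sign. For HR against Control, *Gnb1* was -0.0022 without the 2 female libraries, -0.0097 with *Omp* factors and -0.019 from line sums, and *Gnb2* was -0.0095 with *Omp* factors. Between sexes *Gnao1* was -0.000163 by DESeq2, -0.00023 with RLE factors, -0.0034 without a filter and -0.013 with the replicate block, *Gnb1* was 0.011 with *Omp* factors, and *Gnb2* was -0.00054 without a filter, -0.022 with the replicate block and -0.17 without the 2 female libraries. Without those libraries *Gng8* was 0.0021 and *Gng13* 0.040. Relative to *Omp*, *Plcb2* was -0.0081 without lines 5 and 3, and *Gnb2* was 0.00093 with *Omp* and *Ano1*. Without lines 5 and 3, *r* was 0.894 for male against female ratios and 0.838 for *Vmn1r* over *Vmn2r*.

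Leaving out 1 line at a time gave 1 to 17 genes between HR and Control, 0 to 1 in males, 0 to 2 in females, 13 to 25 between sexes and 3065 to 4967 among lines. The interaction of the ratio ranged from 0.0889 to 0.265, *r* of male against female ratios from 0.0222 to 0.884, with *Vmn1r* over *Vmn2r* from 0.355 to 0.946 and with *Meis2* over *Tfap2e* from -0.28 to 0.338. HR minus Control ranged from -0.14 to 0.042 for *Gnai2*, -0.011 to 0.15 for *Gnao1*, -0.056 to 0.12 for *Gnb1*, -0.074 to 0.14 for *Gnb2*, -0.072 to 0.24 for *Gng8* and -0.47 to 0.20 for *Gng13*. Female minus male ranged from -0.028 to 0.035 for *Gnao1* and -0.064 to 0.049 for *Gnb2*. Relative to *Omp*, HR minus Control ranged from -0.055 to 0.069 for *Gnao1*, -0.052 to 0.038 for *Gnb1*, -0.22 to 0.18 for *Gnb2*, -0.065 to 0.15 for *Gng8*, -0.64 to 0.32 for *Gng13* and -0.066 to 0.15 for *Plcb2*. Among lines, the call of *Gnai2* was lost without Control line 2 (adjusted *p* = 0.0509, edgeR), that of *Gnb1* without lines 2, 3 or 8 and that of *Gnao1* without any line but line 4, and *Gng8* was called without line 5 (0.0341).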
